A study of Mus musculus with 6 samples.

Results

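Scgb1a1, Scgb3a1, Scgb3a2 and Cyp2f2, 3 secretoglobins and a cytochrome P450 that mark secretory cells of the airway, were followed through sorted tumour cells of a mouse lung adenocarcinoma model. These 4 genes were chosen by name from the 31055 features of a single-cell RNA-seq matrix, and they are described in the 12183 of 16017 cells that passed filters on genes detected and on mitochondrial UMIs (unique molecular identifiers, each the count of 1 captured transcript). The matrix pools 6 mice carrying Lkb1XTR/XTR and Rosa26LSL-tdTomato, in which lentiviral Cre switches on tdTomato and traps the Lkb1 XTR allele in an inactive form that FLPo-ERT2 recombinase can restore once tamoxifen is given. The 3 restored mice, 2 male and 1 female, carried FLPo-ERT2 and received tamoxifen. The 3 non-restored mice were a male without FLPo-ERT2 given tamoxifen, a male without FLPo-ERT2 given vehicle, and a female with FLPo-ERT2 given vehicle. Tumours grew for 20 weeks and treatment lasted 2 weeks, with 4 mg doses of tamoxifen or with corn oil as the vehicle. Cre was delivered to whichever lung cells the virus entered, and the sort for neoplastic cells removed cells labelled for CD45, CD31, F4/80 or Ter119. The study sorted tdTomato-positive cells and, in its own analysis, filtered out putative endothelial cells and fibroblasts, which are kept here. No map from cells to mice was used here, so restored and non-restored mice cannot be told apart, the 6 mice count as 1 sample, no test between groups is given, and every interval is a 95% interval that covers counting error only.

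Club cells line the conducting airways, where they secrete secretoglobins, small dimeric proteins of airway lining fluid, and metabolise inhaled compounds through P450 enzymes. Scgb1a1 (uteroglobin, or club cell secretory protein) is their classical product, Scgb3a2 is a related secreted protein of the same cells, Scgb3a1 belongs to secretory cells of the larger airways, and Cyp2f2 oxidises naphthalene and similar compounds. Alveolar type II (ATII) cells secrete surfactant and are marked by Sftpc, and ciliated cells, marked by the transcription factor Foxj1, arise from club cells.

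In the GRCm38 build, Scgb1a1 lies at chr19:9083636-9087958 on the minus strand, Scgb3a1 at chr11:49663610-49665118 on the plus strand and Cyp2f2 at chr7:27119909-27133660 on the plus strand. The 250 bases upstream of the RefSeq start (GRCm38.p6) are given for Scgb3a1, at chr11:49663345-49663594, and for Cyp2f2, at chr7:27119705-27119954, both on the plus strand. The RefSeq start of Cyp2f2 lies downstream of the start given above, so the end of its window falls inside the gene as placed there. No stretch is given for Scgb1a1, which was not among the promoters used, and neither position nor stretch for Scgb3a2. The 2 genes shown differ by cell class. Outside 7 cells very rich in Scgb1a1, Scgb3a1 was counted mainly in cells with endothelial markers, where Cyp2f2 had no UMI. Capitals mark TCAAG, the core letters bound by NKX2-1, and TGTTTNC, those bound by FOXA factors, on either strand.
Scgb3a1: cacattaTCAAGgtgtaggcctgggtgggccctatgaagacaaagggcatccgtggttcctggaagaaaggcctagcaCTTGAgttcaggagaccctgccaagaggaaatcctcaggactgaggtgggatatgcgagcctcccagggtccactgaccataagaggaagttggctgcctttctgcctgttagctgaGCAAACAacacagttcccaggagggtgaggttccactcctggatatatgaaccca
Cyp2f2: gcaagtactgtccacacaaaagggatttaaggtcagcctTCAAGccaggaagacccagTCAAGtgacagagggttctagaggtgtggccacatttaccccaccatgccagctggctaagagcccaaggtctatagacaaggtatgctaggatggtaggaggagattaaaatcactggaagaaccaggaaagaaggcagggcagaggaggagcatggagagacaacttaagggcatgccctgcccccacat
The Scgb3a1 stretch held TCAAG on each strand and TGTTTNC once on the minus strand, while the Cyp2f2 stretch held TCAAG at a pair of places on the plus strand and no TGTTTNC. The C/EBP letters TTGCNNAA were in neither window. Such matches are common: of 32851 promoters of the same length, 35.9% held TCAAG, 17.8% held TGTTTNC and 9.56% held TTGCNNAA.

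Cells were placed in classes by fixed rules on marker genes. The 8525 Sftpc-high cells (500 or more Sftpc UMIs per 10000) were the main class, and 47 cells with at least 3 of 6 ciliated-cell genes were called ciliated. Cells with at least 3 of 6 endothelial, fibroblast or immune marker genes numbered 127, 242 and 77. The others were 1357 Hopx-high cells (Hopx marks alveolar type I cells), 1006 keratin-high cells (Krt8 and Krt19), 3 cells that met both the ciliated and the Sftpc rules, and a remainder of 799. Median UMIs per cell were 21371 in Sftpc-high, 13050 in ciliated, 10173 in endothelial-marker and 14905.5 in fibroblast-marker cells. Transcripts of the tdTomato reporter had a median of 58.6 per 10000 UMIs in Sftpc-high cells but 3.66 in ciliated, 4.26 in endothelial-marker and 1.47 in fibroblast-marker cells. At least 1 tdTomato UMI was found in 99.95% of Sftpc-high, 95.7% of ciliated, 89.8% of endothelial-marker and 80.6% of fibroblast-marker cells.

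Most Scgb1a1 and Scgb3a2 transcripts came from 7 cells. These were the cells with 500 or more Scgb1a1 UMIs per 10000, a limit set after the values were seen: the lowest of the 7 had 927 and the next cell 136. They made up 0.0575% of the kept cells (exact interval 0.0231 to 0.118%) and held 92.2% of the 168702 Scgb1a1 UMIs, 95% of the 3215 Scgb3a2 UMIs and 59.8% of the 3721 Scgb3a1 UMIs. Of the 9643 Cyp2f2 UMIs they held 7.23%, so that Cyp2f2 was the member spread most widely over other cells.

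**Figure D1:**
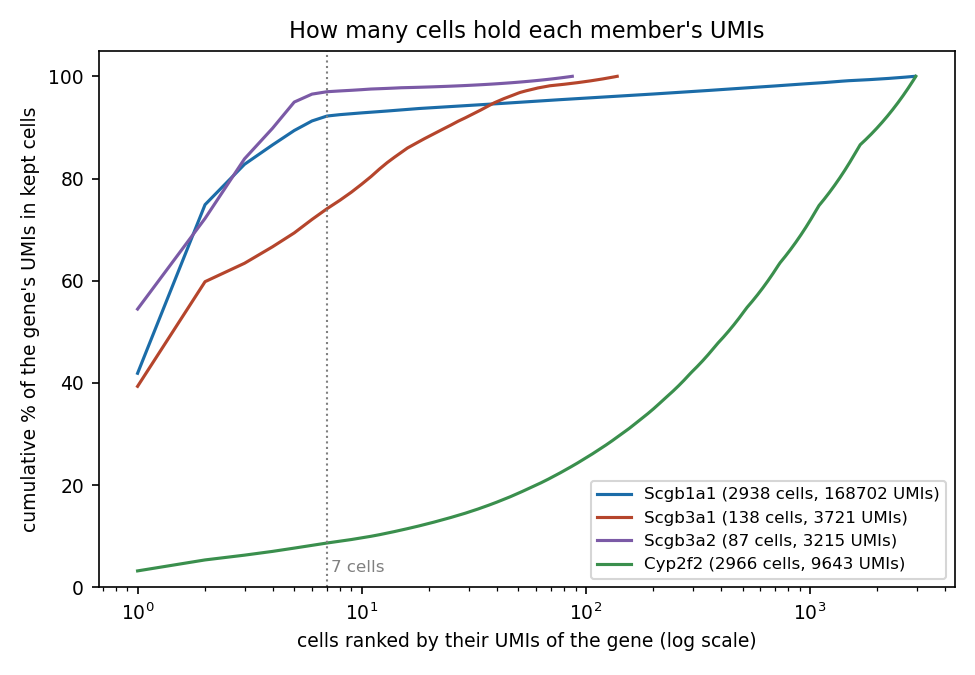
Cumulative percent of each gene's UMIs over the 12183 kept cells (y axis) against the number of cells, ordered from the richest down (x axis, log scale), with a line for each of the 4 genes. The Scgb1a1 and Scgb3a2 lines climb within the first few cells, the 7 richest in Scgb1a1 holding 92.2% of its UMIs, whereas the Cyp2f2 line climbs slowly over many cells.

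In 3 of the 7 cells Scgb1a1 was more than 5000 of every 10000 transcripts. The values per 10000 UMIs were 5643, 5622, 5313, 3300, 2800, 1340 and 927, in cells with totals of 23609, 125731, 104735, 9568, 16990, 47704 and 17503 UMIs. The same cells, in that order, held 192, 1751, 375, 0, 570, 165 and 0 UMIs of Scgb3a2 and 30, 312, 207, 19, 62, 53 and 14 of Cyp2f2. Cyp2f2 was thus present in 7 of 7 and Scgb3a2 in 5 of 7. Scgb3a1 was concentrated further, with 762, 1, 0, 0, 1464, 0 and 0 UMIs. The 2 cells high in it also held Bpifa1 (35 and 206 UMIs) and Bpifb1 (27 and 51), secreted proteins of upper-airway and goblet cells, and the cell with 1464 held 212 UMIs of Reg3g, an antimicrobial lectin. The 7 cells were not of 1 class: 3 of them had 6 of 6 ciliated genes, the rest had 0 of 6, and 2 met the Sftpc rule with 1042 and 3061 Sftpc UMIs. tdTomato was counted at 1 to 129 UMIs a cell (0.424 to 46.8 per 10000).

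Set against Sftpc-high cells other than those of the 7, the pooled 7 cells were at least 2-fold higher for 13 of the 14 measured club cell genes beyond the members, for 5 of 5 goblet genes and for 6 of 6 ciliated genes, and at least 2-fold lower for 12 of 12 ATII genes. Over all 8293 genes compared, 9.13% were at least 2-fold higher and 34.5% at least 2-fold lower. The median log2 ratio was 5.57 over the club genes and -0.64 over all genes. Hp (haptoglobin) stood at 6055 against 921 CPM (a gene's UMIs per 1000000 UMIs of the cells summed), Cbr2 (carbonyl reductase) at 2180 against 392, and Ltf (lactoferrin) at 515 against 0.0102. Sox2, a transcription factor of the conducting airway, was at 69.4 against 0.0768 CPM, and Nkx2-1 at 211 against 353 CPM. Nupr1 (546 CPM on both sides) was the club-list gene that did not differ in CPM. Scgb1a1 itself took 155589 UMIs of the 7 cells, a large part of their total, which lowers the CPM of every other gene. Levels with Scgb1a1 out of the total were not computed. The lower values, Nkx2-1 among them, and the share of genes lower therefore include this shift. The pooled values lean on a few cells: the ciliated cells with 125731 and 104735 UMIs weigh most, and goblet genes were detected at 4, 3, 1, 1, 6, 1 and 0 of 9 in the 7 cells, in the order above, beside 9, 12, 11, 7, 12, 11 and 7 of 16 club genes. Since these cells were chosen on Scgb1a1, the higher secretory genes are a description of them. Measured means 10 CPM or more on either side. Genes under that in Sftpc-high cells, such as Ltf, entered only through the 7 cells and could not come out lower. The count of ciliated genes also follows in part from the ciliated rule, which some of the 7 cells met.

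Ciliated cells were the class with the highest Scgb1a1 and Cyp2f2 once the 7 cells were set aside. In the 45 that remained, Cyp2f2 was found in 43 and Scgb1a1 in 40, and both were found in 39. Cyp2f2 ranged from 0 to 90 UMIs a cell with a median of 13, and Scgb1a1 from 0 to 194 with a median of 7. The class level was 1307 CPM for Cyp2f2 (1215 to 1405) against 37.5 (36.6 to 38.3) in Sftpc-high cells, a ratio of 34.9 (32.3 to 37.6). For Scgb1a1 it was 1267 CPM (1176 to 1363) against 55.2 (54.1 to 56.2; 71.3 with its rich cell kept in), a ratio of 23.0 (21.3 to 24.8). With the 2 ciliated cells of the 7 kept in, the ciliated Scgb1a1 level was 159351 CPM, so the value rested on those cells. Within the 45 cells the genes did not go together: Pearson's r of log2(UMIs per 10000 + 1) was -0.20 and Spearman's rho -0.21 (n = 45 cells of 1 matrix, sharing depth).

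Scgb3a2 and Scgb3a1 were sparse in the same 45 cells. Scgb3a2 had 9 UMIs in 5 cells (15.9 CPM against 0.696 in Sftpc-high cells; ratio 22.8, 10.2 to 44.6). Scgb3a1 had 139 UMIs, of which 134 were in 1 cell. Of the other club cell genes, 8 of the 10 measured in the ciliated class were at least 2-fold above Sftpc-high cells and 0 were 2-fold below, where 34.9% of all 9766 genes compared were higher and 12.5% lower. Measured means 10 CPM or more on either side. Genes under that in Sftpc-high cells, such as Aldh1a1, Cyp2a5, Cyp4b1 and Pigr, entered only through the ciliated class and could not come out lower. Aldh1a1, which oxidises retinaldehyde, was at 3528 against 3.70 CPM, Cyp2a5 at 1036 against 0.0205 and the P450 Cyp4b1 at 395 against 1.65. Pigr, the transporter of secretory immunoglobulins, was at 115 against 1.61 CPM, while Hp (1064 against 921) and Nupr1 (1027 against 546) were below the 2-fold mark. Foxj1 was at 873 against 1.04 CPM and 12 of 12 ATII genes were at least 2-fold lower, values that the rules on ciliated genes and Sftpc largely fix.

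**Figure D2:**
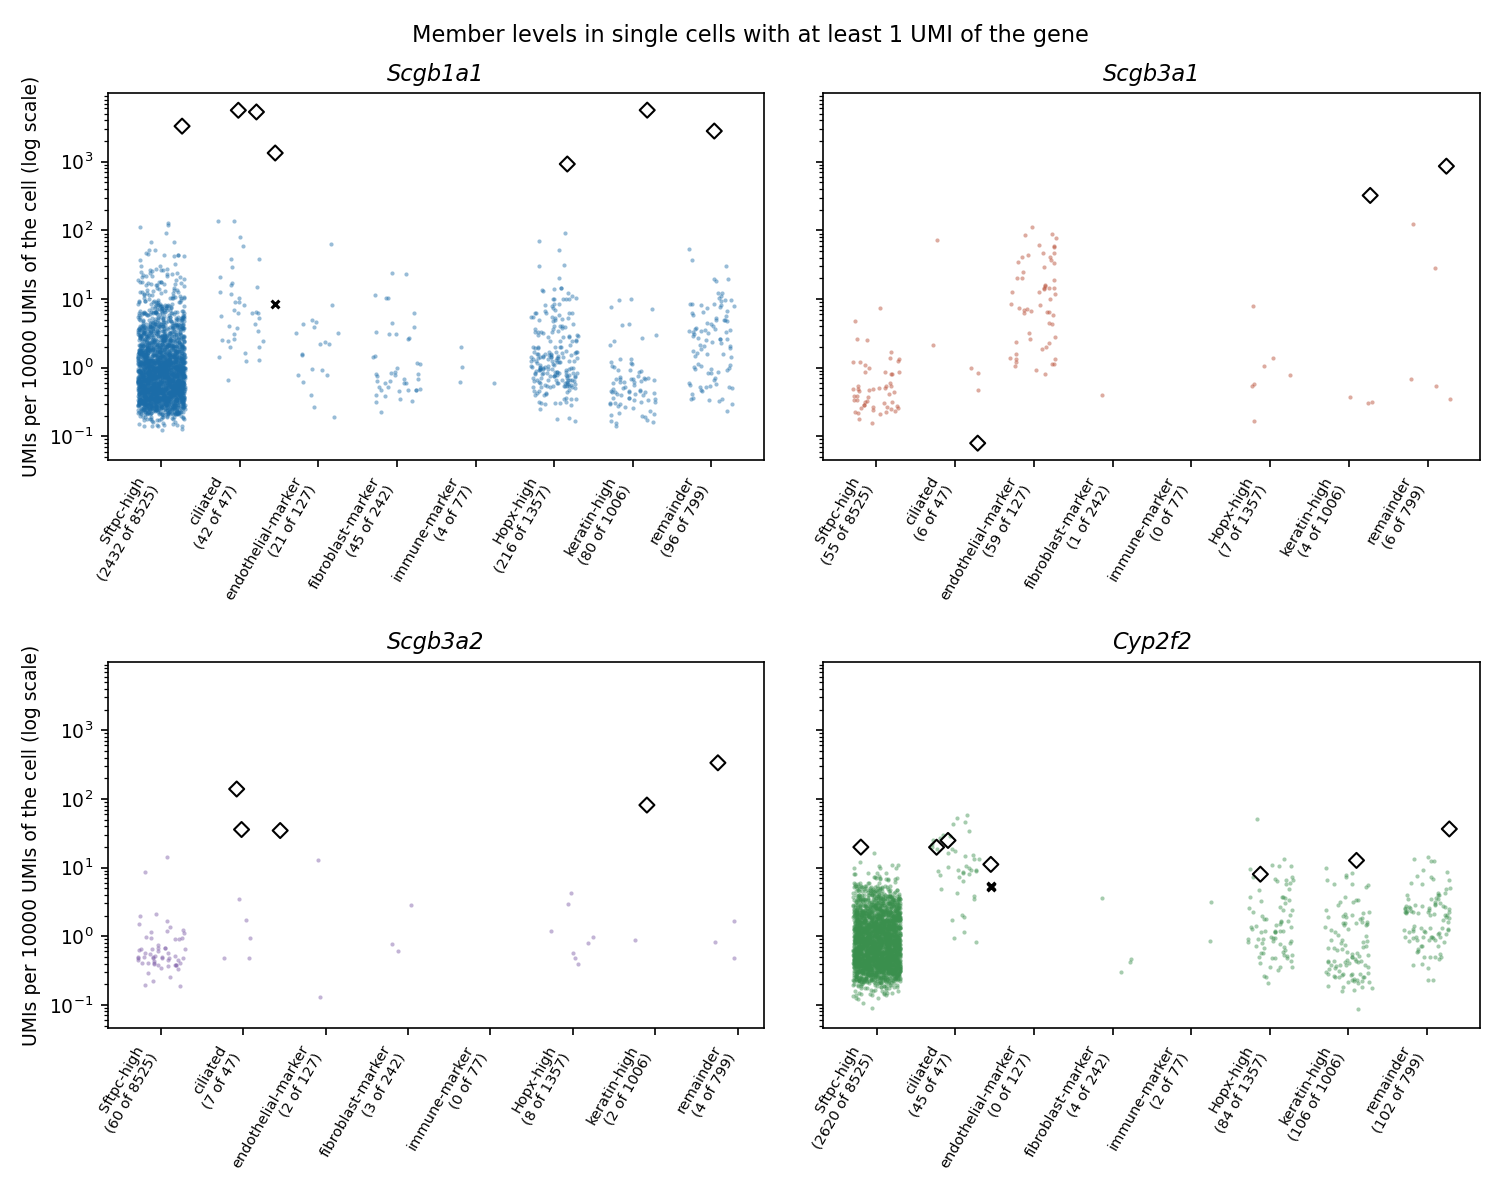
UMIs per 10000 of each of the 4 genes (y axis, log scale) in single cells with at least 1 UMI of it, by cell class (x axis, with the cells that have a UMI of all cells in the class). Open diamonds are the 7 Scgb1a1-rich cells and crosses the cells that met both the ciliated and the Sftpc rules; the diamonds aside, most ciliated cells have a UMI of Cyp2f2 and of Scgb1a1, and Scgb3a1 has a UMI in 59 of 127 endothelial-marker cells.

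Among Sftpc-high cells Cyp2f2 and Scgb1a1 were detected at low levels. With the 7 cells set aside, a UMI of Cyp2f2 was found in 30.7% of Sftpc-high cells and a UMI of Scgb1a1 in 28.5%. After each cell was thinned at random to 5000 UMIs, to compare classes at 1 depth, the shares were 13.6% (12.8 to 14.3) for Cyp2f2 and 12.9% (12.2 to 13.7) for Scgb1a1 in the 8233 cells deep enough. Free RNA in droplets can give a cell a UMI of a gene it does not express, so the same shares in other lineages give the background. For Cyp2f2 that background was low: 1.08% in thinned fibroblast-marker cells and 0 of 81 in thinned endothelial-marker cells (0 of 127 at full depth). For Scgb1a1 it was not: 6.99% in fibroblast-marker cells (3.77 to 11.7) and 4.94% in endothelial-marker cells. In thinned immune-marker cells the shares were 1.47% for Cyp2f2 and 4.41% for Scgb1a1.

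In summed UMIs, both genes were higher in Sftpc-high cells than in each of these lineages. The fold was larger for Cyp2f2 against fibroblast-marker and endothelial-marker cells, and larger for Scgb1a1 against immune-marker cells. Cyp2f2 in Sftpc-high cells was 16.3-fold (8.56 to 35.6) above fibroblast-marker cells and at least 20.7-fold above endothelial-marker cells, taking 3 UMIs as the limit for a class with none. Scgb1a1 in Sftpc-high cells, at 55.2 CPM, was 2.99-fold (2.37 to 3.83) above fibroblast-marker cells (18.4 CPM) and 2.28-fold (1.68 to 3.20) above endothelial-marker cells (24.1 CPM). As a mean that weights cells equally, without the 7, Scgb1a1 was at 63.3 CPM in Sftpc-high, 53.5 in fibroblast-marker and 87.9 in endothelial-marker cells. By this mean endothelial-marker cells stood above Sftpc-high cells. Over the 77 immune-marker cells, Sftpc-high cells were 3.45-fold (2.21 to 5.73) higher for Cyp2f2 and 24.1-fold (9.41 to 88.5) for Scgb1a1. Of the 19 Cyp2f2 UMIs in immune-marker cells, 15 were in 1 cell. Of the 9371 genes compared between Sftpc-high and fibroblast-marker cells, 12.1% were at least 2-fold higher in the former. Without the 7 cells, the number of Scgb1a1 UMIs for each Cyp2f2 UMI was 1.47 (1.43 to 1.52) in Sftpc-high, 0.969 (0.873 to 1.08) in ciliated and 8.0 (3.99 to 18.2) in fibroblast-marker cells, and 40 to 0 in endothelial-marker cells. It was 0.211 (0.0521 to 0.633) in immune-marker cells, from 4 Scgb1a1 and 19 Cyp2f2 UMIs. The place of the ciliated class turned on its 2 rich cells: over all kept cells its ratio was 101 (95.4 to 107), against 1.90 (1.85 to 1.95) in Sftpc-high cells.

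**Figure D3:**
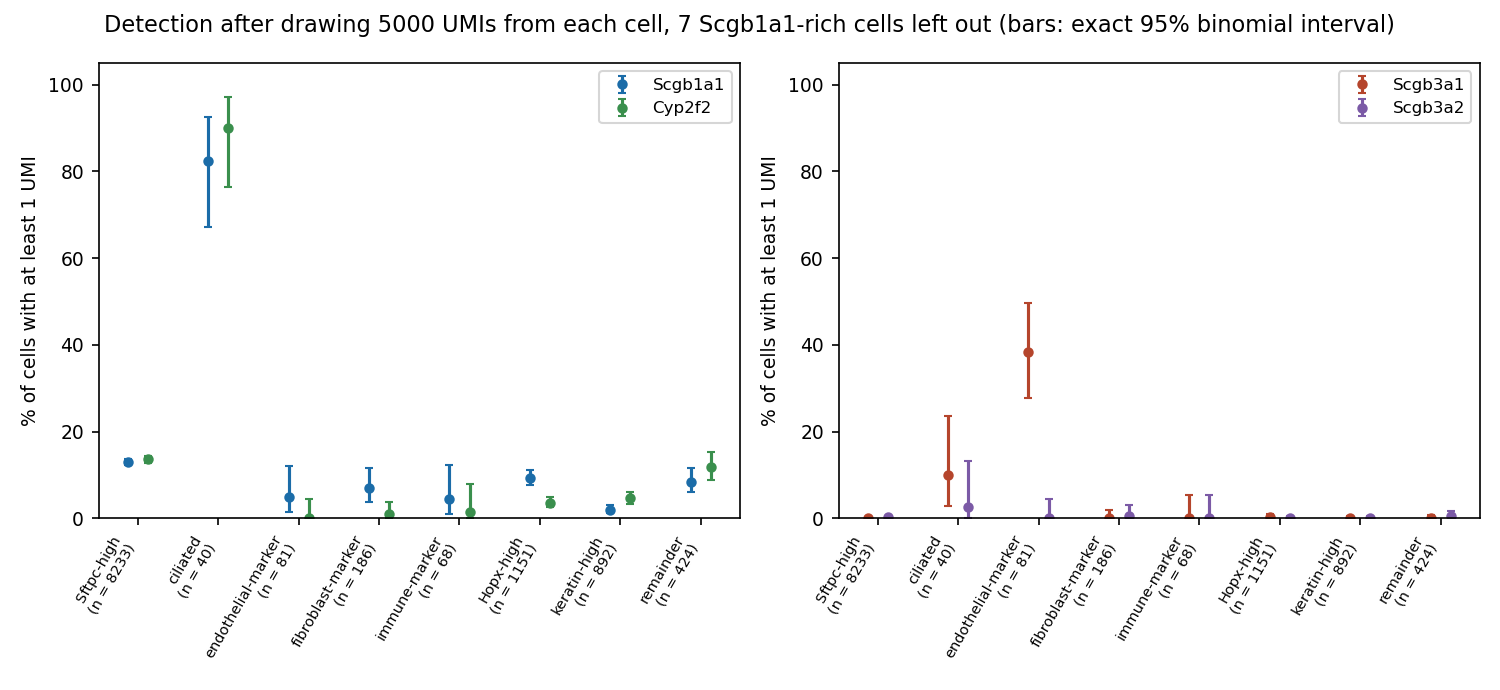
Percent of cells with at least 1 UMI of each gene after thinning every cell to 5000 UMIs (y axis), by cell class (x axis), without the 7 Scgb1a1-rich cells; bars are exact 95% intervals for counting error. Cyp2f2 stands at 13.6% in Sftpc-high cells and at 0 of 81 in endothelial-marker cells, whereas Scgb1a1 is above 0 in every class.

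With the 7 cells set aside, Scgb1a1 and Cyp2f2 were lower in Hopx-high and keratin-high cells than in Sftpc-high cells. Each of these classes holds 1 of the 7, and for Scgb1a1 the order turns on them: with all kept cells it was at 119 CPM in Hopx-high and 505 in keratin-high against 71.3 in Sftpc-high cells. As a mean that weights cells equally, without the 7, Scgb1a1 was at 59.9 CPM in Hopx-high and 63.3 in Sftpc-high cells. In summed UMIs without the 7, Scgb1a1 stood at 84.1 CPM in the remainder, 55.2 in Sftpc-high, 37.0 in Hopx-high and 5.77 in keratin-high cells. The place of the remainder rested on 1 cell with 259 of its 602 UMIs: without that cell the remainder was at 48.3 CPM (ratio to Sftpc-high 0.875, 0.784 to 0.975), and its equal-weight mean was 60.6 CPM. Cyp2f2 stood at 42.1 CPM in the remainder, 37.5 in Sftpc-high, 13.8 in Hopx-high and 9.86 in keratin-high cells, and the first 2 of these did not differ beyond counting error (ratio 0.891, 0.793 to 1.00). Sftpc-high cells were thus 9.55-fold (8.15 to 11.3) above keratin-high cells for Scgb1a1 and 3.80-fold (3.36 to 4.31) for Cyp2f2. Over Hopx-high cells Sftpc-high cells were 1.49-fold higher for Scgb1a1 and 2.72-fold (2.41 to 3.08) for Cyp2f2. These 4 ratios stand beside all genes, of which 4.89% of 8398 were at least 2-fold higher in Sftpc-high than in keratin-high cells and 4.91% of 8485 than in Hopx-high cells. Over the 3605 cells that were neither Sftpc-high nor ciliated, the 7 aside, Scgb1a1 was 2.09-fold higher (1.99 to 2.21), where 3.28% of 8789 genes were at least 2-fold higher. As equal-weight means it was at 63.3 against 45.2 CPM. With all kept cells the order reversed, at 71.3 CPM in Sftpc-high cells against 349 in those others. Scgb3a1 and Scgb3a2 were near 0 in all 4 without the 7 cells, at no more than 2.52 and 0.696 CPM. With all kept cells they were at 207 and 79.9 CPM in the remainder and at 28.7 and 7.23 in keratin-high cells.

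The shape of the distribution also differed between Scgb1a1 and Cyp2f2. Of the Sftpc-high cells without the 7, 170 (1.99%) had 10 or more Scgb1a1 UMIs and these held 55.2% of the class's Scgb1a1 UMIs, with a highest cell of 461. For Cyp2f2, 86 cells (1.01%) had 10 or more and held 16.5%, with a highest cell of 29. Scgb1a1 thus had a long upper tail in Sftpc-high cells and Cyp2f2 a short one. In fibroblast-marker and endothelial-marker cells, which are fewer and shallower, the highest Scgb1a1 counts were 8 and 6. Per 10000 UMIs the highest cells there were at 23.8 and 64.3, against 127 in Sftpc-high cells, a smaller contrast than in counts.

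Scgb1a1 was detected no more often in Sftpc-high cells with Cyp2f2 than in those without. After thinning, Scgb1a1 was found in 135 of 1117 cells with Cyp2f2 (12.1%, 10.2 to 14.1) and in 930 of 7116 without it (13.1%, 12.3 to 13.9), a difference of -0.98 percentage points (-3.01 to 1.21). With the 7 cells kept in, the difference was -2.67 (-4.73 to -0.58) at full depth and -2.86 (-4.99 to -0.62) at 10000 UMIs a cell, values below 0 beyond counting error. In each of 5 equal bins of the class by total UMIs the share was lower in cells with Cyp2f2, from 16.9 against 24.7% in the shallowest to 33.0 against 34.1% in the deepest. The 170 cells with 10 or more Scgb1a1 UMIs were another matter: Cyp2f2 was found in 41.2% of them (33.7 to 49.0), against 31.5% of cells with no Scgb1a1, 28.0% of those with 1 and 27.5% of those with 2 to 9, at median depths of 24379.5, 21095, 21355 and 22738 UMIs. Of all 8525 Sftpc-high cells, 48.5% held none of the 4 genes, 42.6% held 1 of them, 8.57% held 2, and 3 cells held all 4.

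**Figure D4:**
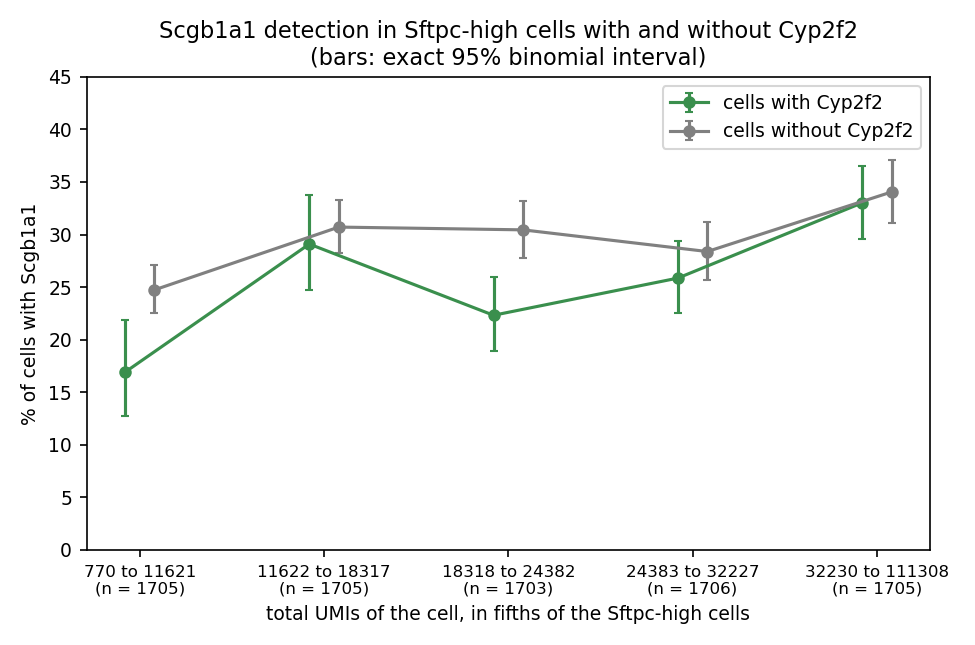
Percent of Sftpc-high cells with a Scgb1a1 UMI (y axis), in cells with and without a Cyp2f2 UMI, by 5 equal bins of total UMIs per cell (x axis); bars are exact 95% intervals for counting error. In each bin the cells with Cyp2f2 sit below those without, from 16.9 against 24.7% to 33.0 against 34.1%.

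The rarer secretoglobins were found more often beside Scgb1a1 in Sftpc-high cells. Scgb3a2 was found in 42 of 2431 cells with Scgb1a1 (1.73%, 1.25 to 2.33) and in 18 of 6093 without (0.295%), and its share went from 0.295% through 1.15 and 1.91 to 4.71% over cells with 0, 1, 2 to 9 and 10 or more Scgb1a1 UMIs. Scgb3a1 was found in 31 of 2431 (1.28%) and 24 of 6093 (0.394%), and its shares over the same steps were 0.394, 0.660, 1.53 and 4.12%. After thinning, Scgb3a2 was found in 8 of 1065 cells with Scgb1a1 and 16 of 7168 without, and Scgb3a1 in 5 and 7. These are small counts: outside the 7 cells, 82 kept cells had a Scgb3a2 UMI and 72 of them had exactly 1. The highest, an Sftpc-high cell with 50 Scgb3a2 UMIs, also held 48 of Scgb1a1 and 6 of Cyp2f2. Whether shared free RNA or doublets contribute was not tested.

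Sftpc-high cells in the Scgb1a1 tail differed from Sftpc-high cells with no Scgb1a1 UMI in a small set of genes. The 181 cells with at least 5 Scgb1a1 UMIs per 10000 and at least 3 UMIs (median depth 16389) were set beside the 6093 with none (21095), and 58 of 7768 genes (0.747%) were at least 2-fold higher and 124 (1.6%) at least 2-fold lower. Of the members, Cyp2f2 was 2.04-fold higher (1.80 to 2.31), at 78.5 against 38.5 CPM. The 181 include 1 of the 7 rich cells, and without it the Cyp2f2 ratio was 1.90 (1.66 to 2.16), under the 2-fold mark. Scgb3a2 was at 18.2 against 0.147 CPM (61 UMIs in the high cells), but 50 of those UMIs were in 1 cell, without which it was at 3.32 CPM (ratio 22.7, 9.81 to 49.6). Scgb3a1 was 2.91-fold higher with an interval that included no difference (0.767 to 7.88). Genes of the club list were higher as well: 4 of the 5 measured passed 2-fold, namely Cldn10 (7.19-fold), Hp (2.44), Gsta3 (2.09) and Cbr2 (2.03), and Nupr1 was at 1.98.

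ATII genes were mostly alike on both sides, with Sftpc at 162776 against 143768 CPM and 1 of 12 ATII genes past 2-fold, Hc (complement C5; 810 against 337 CPM). Among genes with at least 100 UMIs in the high cells, the largest ratios were those of Cst8 (a cystatin), at 195 against 34.5 CPM (5.67-fold, 5.21 to 6.15), Gdpd2 (4.44), Fxyd4 (3.12), the complement component C6 (3.10) and the non-coding Snhg11 (3.01). Lower in the high cells were Gkn2 (gastrokine), at 0.597 against 37.9 CPM, Dlk1, at 67.2 against 538, and the tight-junction gene Cldn4 (ratio 0.0676). Gzme, with 0 UMIs in the high cells, was at least 17.6-fold lower. Keratins were lower too, 3 of 4 past 2-fold, with Krt7 at 121 against 309 CPM. Genes that mark the mice differed alongside: Xist, made by female cells, was at 171 against 361 CPM and the Y-linked Ddx3y at 44.5 against 27.5, and Stk11 (Lkb1) was at 40.3 against 20.3 CPM and the GFP of the XTR trap at 6.87 against 27.3. The split by Scgb1a1 and the mouse or Lkb1 state of the cells cannot be told apart. When cells were instead split by a Scgb1a1 UMI after thinning, 0.092% of 7609 genes were at least 2-fold higher and 0.473% lower, with Cst8 again higher (2.49-fold) beside Fmo2 (2.53), a flavin monooxygenase, and Gkn2 again lower (ratio 0.162). In that split 0 of 4 measured club genes and 0 of 4 keratins passed 2-fold, with median log2 ratios of 0.51 and -0.60 beside -0.07 over all genes.

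The split by Cyp2f2 went with other genes. Among thinned Sftpc-high cells, 0.118% of 7611 genes were at least 2-fold higher and 0.236% at least 2-fold lower in cells with Cyp2f2. Gkn2, which was low beside high Scgb1a1, was here at 92.5 against 21.2 CPM (4.37-fold), with Psca (3.02) and Retnla (a resistin-like secreted protein; 2282 against 1050 CPM) also higher. Scgb1a1 was at 78.8 against 51.2 CPM (1.54-fold), Cbr2 at 1.89-fold and Hp at 1.55-fold. Sex-linked genes stood apart as well: Xist was at 591 against 260 CPM and Ddx3y at 9.66 against 34.1. Cyp2f2 detection and the makeup of the pool by mouse cannot be told apart.

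Scgb3a1 belonged mainly to endothelial-marker cells outside the 7. It was found in 59 of 127 of them (46.5%; 38.3% after thinning) and in 0.645% of Sftpc-high cells (0.146% after thinning), and in 1 UMI over 242 fibroblast-marker cells. The level was 734 CPM (693 to 776) against 0.558, a ratio of 1315 (1080 to 1615). Of the 9448 genes compared between these classes, 30.9% were at least 2-fold higher in endothelial-marker cells. Among the 59 positive cells the median was 11 UMIs and the highest 120, 49 cells had 3 or more and 6 had exactly 1. Scgb3a1 was found in 45 of 101 cells with 5 or 6 of the 6 endothelial genes (44.6%, 34.7 to 54.8), in 12 of 15 with 4 (80%, 51.9 to 95.7) and in 2 of 11 with 3 (18.2%). The other members were absent or sparse in the class: Cyp2f2 had 0 UMIs, Scgb3a2 had 2 and Scgb1a1 had 40. The sort removed CD31-labelled cells, yet Pecam1, which encodes CD31, was at 990 CPM in this class. In 10 Sftpc-high cells with at least 3 endothelial genes Scgb3a1 was found in 5, against 25 of 6417 (0.390%) with none of those genes.

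The 59 positive cells differed from the 68 without Scgb3a1 in genes of vessel type. Of 9037 genes, 5.19% were at least 2-fold higher and 6.64% at least 2-fold lower in positive cells, while 0 of the 6 endothelial markers passed 2-fold either way. Arterial genes were higher, 5 of 7 past 2-fold: Gja5 4.86-fold (2.63 to 9.81), the Notch target Hey1 4.03-fold, the Notch ligand Dll4 3.84-fold, Gja4 2.72-fold and Efnb2 2.46-fold. Of 8 venous genes 7 were at least 2-fold lower, among them Ackr1 at 14.8 against 349 CPM, Vcam1 (ratio 0.0610), Selp (0.334) and Nr2f2 (0.332). Tip cell genes were higher in 6 of 7, with Esm1 at 71 UMIs against 0 (at least 17.7-fold) and Cxcr4 at 13.1-fold (4.89 to 49.3). Of 8 capillary genes 3 were higher, Gpihbp1 at 2.24-fold among them, and of 3 measured lymphatic genes 1 was higher and 1 lower. Of 4 keratins 2 were higher, Krt8 and Krt18. The arterial, venous, tip, capillary and lymphatic lists were chosen after values had been seen.

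Named by size among all genes, Ptn (pleiotrophin) was at 285 against 2.82 CPM and Igfbp3, an insulin-like growth factor binding protein, at 881 against 48.0 CPM (18.4-fold, 13.0 to 26.7). Fabp4, a fatty acid binding protein of capillaries, was 5.17-fold higher and Krt8 4.72-fold, and the surfactant gene Sftpd was lower (ratio 0.139). Positive cells had no Xist UMI where the others had 115 UMIs, in 4 cells, and a Y-linked gene was found in 46 of 59 and 41 of 68. Vessel type, mouse and sex of the cells cannot be told apart here, and the positive cells were also deeper (median 11697 against 8180.5 UMIs).

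**Figure D5:**
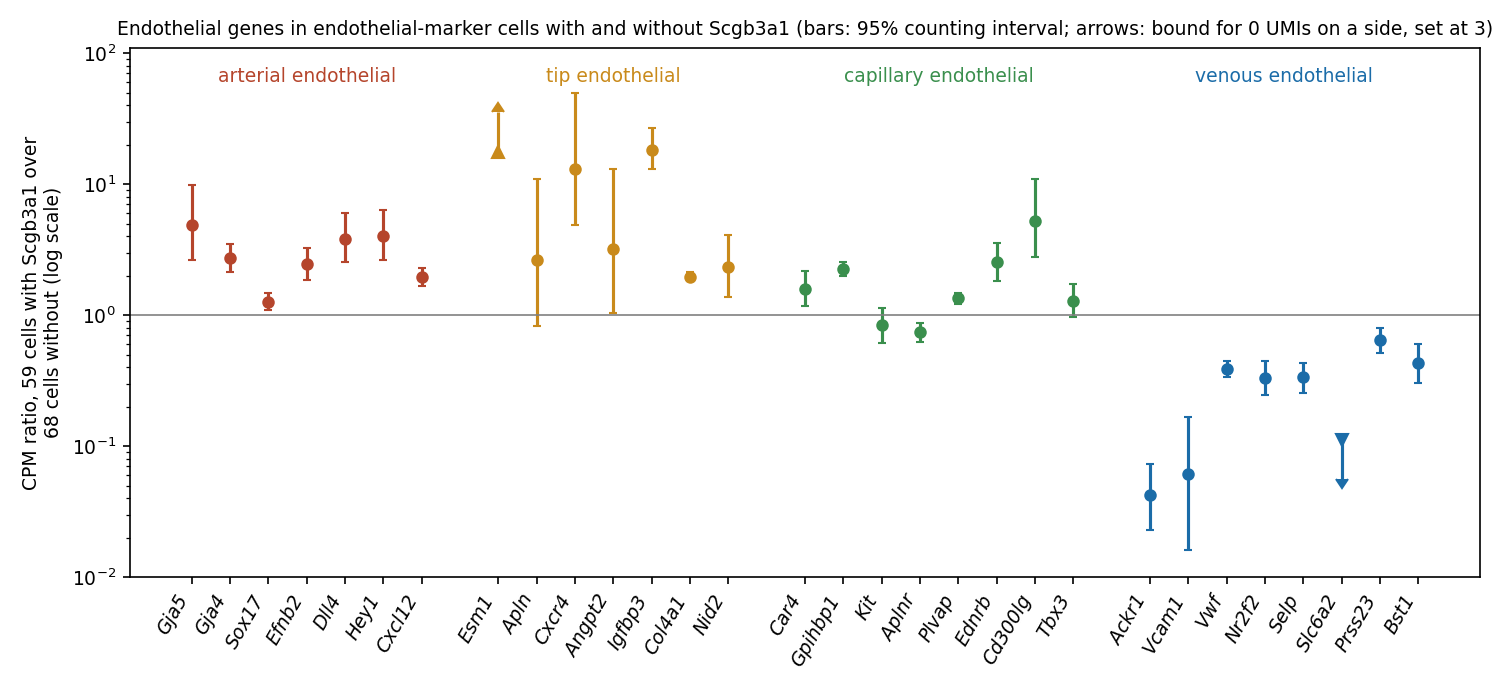
Ratio of CPM in the 59 endothelial-marker cells with Scgb3a1 over the 68 without (y axis, log scale) for genes of arterial, tip, capillary and venous lists (x axis). Bars are exact 95% intervals for counting error and arrows mark bounds where a side had 0 UMIs, set at 3. Arterial genes such as Gja5 (4.86-fold) lie above the line at 1 and venous genes such as Ackr1 (14.8 against 349 CPM) below it.

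The pattern of each member over the 9 classes was set beside every gene's, by Pearson's r of log2(CPM + 1). For Scgb3a2 the closest of 12516 genes was Cyp2a5 (r = 0.964), and Scgb1a1 itself was among its 5 closest (0.958). For Scgb1a1 they were led by Wdr78 (0.991) and for Cyp2f2 by Pclo (0.982), and for Scgb3a1 by Sin3a (0.943). Scgb1a1 and Cyp2f2 resembled each other at r = 0.886, whereas Scgb3a1 resembled Scgb1a1 at 0.234 and Cyp2f2 at -0.051. Each r is over 9 points that share 1 matrix and include the 7 Scgb1a1-rich cells. Of 34 secretoglobin genes in the matrix, 30 had no UMI in kept cells, and Scgb1c1 was the only other one detected. Without the 7 cells it was at 30.6 CPM in Sftpc-high, 10.6 in ciliated, 0.768 in fibroblast-marker and 0 in endothelial-marker cells, and with them the ciliated value was 32.6 CPM, from 26 UMIs of which 15 were in 1 cell.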

How the data were processed

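The deposited counts are UMIs per gene and cell that the authors made with Cell Ranger 3.0.2 on mm10, given as 1 matrix of the 6 mice. Left out were 2081 cells with under 500 genes and 1753 others with over 20% mitochondrial UMIs. Scrublet (scanpy 1.11.5) called 0 of 12183 cells and so did not work as a doublet caller: doublets were kept, and the top 6% of scores were left out as an alternative. CPM has exact Poisson intervals, ratios have exact conditional intervals and shares Clopper-Pearson intervals. A gene counted as higher or lower past 2-fold, among genes at 10 CPM or more on either side. Named genes are the members, genes of the fixed lists, the 5 highest and 5 lowest ratios with at least 100 UMIs on the higher side, and the 5 genes closest in r. Positions are from GENCODE M21, which matched 30934 of 31055 features, and promoters from RefSeq. The scripts were tested on simulated data. The genes, classes and lists were chosen with earlier results of these data known. Alternatives changed the filters, class limits, thinning and doublet handling. Without a map from cells to mice, restored and non-restored mice were not compared. Plots used matplotlib 3.10.9, and sums scipy 1.17.1 with pandas 2.3.3 under Python 3.11.15. A further allele shared by all 6 mice is not reported here.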

Additional observations from a re-analysis of the deposited data

Results flagged for a closer look

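Outside the kept cells, the 3834 cells left out for few genes or a high mitochondrial share (median 1915 UMIs, 42.6% mitochondrial) are data that the comparisons do not use, and they held UMIs of all 4 genes above the limit that a count of 0 allows. Scgb1a1 was at 399.8 CPM (387 to 413) in them, with 8 cells at 500 or more per 10000 UMIs, Scgb3a1 at 7.02 CPM, Scgb3a2 at 9.84 CPM and Cyp2f2 at 17.6 CPM. Scgb1a1 was found in 545 of these cells (14.2%), a share below those in kept fibroblast-marker (18.6%, median 14905.5 UMIs) and endothelial-marker cells (16.5%, median 10173 UMIs), at lower depth, so the share is not read as expression.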

How the results depend on the processing

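No paired analysis was possible because the matrix holds the 6 mice together and no cell was assigned to a mouse, and for the same reason no fit of restored against non-restored animals (edgeR, DESeq2 or leaving out each animal) was run. Over 523 values recomputed under other settings, 427 stayed within their spread and 96 moved. Most are levels, shares or counts, which cannot change sign. Ciliated over Sftpc-high and Sftpc-high over fibroblast-marker cells for Scgb1a1 and Cyp2f2, and endothelial-marker over ciliated cells for Scgb3a1, held in the 10 settings tried; the order of Hopx-high, keratin-high and remainder cells was not followed over them. Scgb1a1 in Sftpc-high cells was 71.3 CPM with the 7 rich cells in, 55.2 without them, 69.7 and 79.3 at Sftpc limits of 250 and 1000, 74.6 without the top-scored doublets, 102.0 as a mean per cell and 83.9 with Sftpc out of the total. Cyp2f2 there went from 37.6 to 44.2 CPM with Sftpc out, and in ciliated cells from 1580 to 1405 CPM (ciliated from 2 genes) and 1307 (rich cells out). Scgb3a1 in endothelial-marker cells went from 734 to 667 CPM at the Sftpc limit of 1000, 783 without top-scored doublets and 963 as a mean per cell. The thinned share of Sftpc-high cells with Scgb1a1 went from 12.9% to 12.1% with a mitochondrial limit of 10%, 14% at the Sftpc limit of 1000, 28.5% with no thinning, 19.2% at 10000 UMIs and 4.48% for 2 or more UMIs. For Cyp2f2 it went from 13.6% to 30.7% with no thinning, 21.0% at 10000 UMIs and 4.08% for 2 or more. The share of Scgb1a1 UMIs in the rich cells was 92.2%, and 92.8% at a limit of 10%, 91.8% with no mitochondrial limit and 92.8% without top-scored doublets. The count of genes higher and lower in Scgb1a1-high cells went from 58 and 124 to 100 and 205 at 10 per 10000, and to 7 and 36 for detected against not detected after thinning. The difference in Scgb1a1 share by Cyp2f2 (-0.90 points with the 7 cells in) stayed within its interval in 11 alternatives. Leaving out the 7 cells, the thinned split of genes and the comparison of endothelial-marker cells by Scgb3a1 were chosen after seeing the data, as were the values given without a single cell. At a median of 19348 UMIs a cell, a cell with no UMI of a gene may still express it.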
